A study of Mus musculus with 8 samples.

Results

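The lysyl oxidase family comprises Lox, Loxl1, Loxl2, Loxl3 and Loxl4, which encode copper-dependent amine oxidases that are secreted into the extracellular matrix. These enzymes oxidise lysine residues of collagen and elastin, and the aldehydes that form become the covalent crosslinks that give collagen fibres and elastic fibres their strength. In tumours the family is known for stiffening the matrix, and Lox and Loxl2 are known for their induction by hypoxia. Lox and Loxl1 are made as proenzymes whose propeptide is removed by proteases of the Bmp1 family. Loxl2, Loxl3 and Loxl4 carry scavenger receptor domains in that place.

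The family was examined here through the accessibility of the chromatin in and around its genes, not through expression. ATAC-seq uses a transposase that cuts and tags open DNA, and the counts give how much tagged DNA came from each region. A region was counted for a member when that member was the nearest protein-coding gene, with the region inside the gene body or at most 50 kb from it. This gave 26 of the 57417 consensus regions of the series (mm10): 2 for Lox, 8 for Loxl1, 10 for Loxl2, 1 for Loxl3 and 5 for Loxl4. All 26 passed the filter on low counts. The sum over a gene's regions is called its locus. Distances were taken to the RefSeq gene bodies of GRCm38.p6.

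The libraries came from PB3, a mouse breast cancer line labelled Er-/Pr-/Her2-, and 4 lines were compared. PB3-Parental was untreated. PB3-ERI-R, PB3-PAC-R and PB3-VIN-R were derived from PB3 as resistant clones with eribulin (spelled Erubilin in the treatment label), paclitaxel and vinorelbine, all drugs that act on microtubules, each at 300, 500 and 800 nM. Each line had 2 libraries, and how many clones a line holds is not given in the labels. Nothing states that the libraries of a line came from separate cultures, so p-values measure the spread between libraries, which may be technical. In these bulk libraries, fewer cells with an open region and a less open region in each cell cannot be told apart.

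Libraries held 10521964 to 24052237 counts, the lowest in PB3-ERI-R. Over the whole table PB3-ERI-R was the line far from the rest: 73.0% of all tested regions were called different from PB3-Parental in it, against 0.0853% for paclitaxel (PB3-PAC-R) and 0.678% for vinorelbine (PB3-VIN-R). Leaving out 1 library moved the counts behind the last shares from 49 to between 3 (without either PB3-ERI-R library) and 172 (without PB3-Parental replicate 1), and from 389 to between 14 (without PB3-VIN-R replicate 2) and 991 (without PB3-Parental replicate 1). The labelled cell type was checked with marker lists, to be read against 28.0% of all loci called higher and 30.3% called lower in PB3-ERI-R. Of 8 loci of mammary epithelial genes, 6 were higher in PB3-ERI-R and none lower, with a summed level of 390 to 522 CPM (counts scaled to library size) in PB3-Parental and 1103 to 1266 CPM in PB3-ERI-R. Of 6 loci of mesenchymal genes, 5 were lower and 1 was higher, with sums of 774 to 826 and 426 to 433 CPM. The fibroblast list fell in 2 of 4 tested loci (90.9 to 96.3 CPM against 58.3 to 58.9 CPM), with Lum and Fap having no region. The macrophage list fell in 2 of 3 and rose in 1 (96.9 to 98.1 against 44.8 to 53.7 CPM), with no region for Adgre1 and Cd68. The endothelial list fell in 2 of 4 and rose in 1 (298 to 320 against 677 to 786 CPM), with no region for Cdh5. Flt1, which rose from 154 and 164 to 711 and 601 CPM in a window with a median of 1.88, made up the higher sum, while Kdr and Tek fell and Pecam1 was not called. In PB3-PAC-R and PB3-VIN-R none of the 25 loci on these lists was called by edgeR or DESeq2. An unadjusted edgeR p under 0.05 was found at 1 and 3 of them, and at 849 and 1070 of all 14903 loci. The part of other cells in the results below was not tested.

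Of the 5 members, Loxl4 (gene 67573, chromosome 19, 42592279 to 42612806) has an entry in the RefSeq promoter table, and its promoter is shown because the Loxl4 region over the gene start is one of the few family regions that kept its level in PB3-ERI-R. The 250 bases upstream of the start lie at chr19:42612807-42613056 (GRCm38.p6, minus strand), wholly inside that region. Capitals mark GGGCGG, the GC box of Sp factors, and CACGC, which is the core GCGTG of the hypoxia response element read on the opposite strand.
Loxl4 promoter: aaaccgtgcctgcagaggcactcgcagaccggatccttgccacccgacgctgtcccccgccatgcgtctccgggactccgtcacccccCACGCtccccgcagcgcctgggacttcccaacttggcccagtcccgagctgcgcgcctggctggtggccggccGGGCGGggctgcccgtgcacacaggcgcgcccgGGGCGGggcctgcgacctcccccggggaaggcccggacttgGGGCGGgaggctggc
The window was 76% G and C, against a median of 52.4% over 32851 mouse promoters of the same length. Searched on both strands, GGGCGG matched 3 times, with first bases 89, 56 and 15 bases before the start, and 32.7% of promoters hold at least 1 match. GCGTG matched once, 162 bases before the start, and 28.2% of promoters hold it. ACGTG (the other hypoxia core, in 16.6% of promoters), TGANTCA (AP-1, 6.75%), CACCTG (the E-box of Zeb and Snail factors, 17.2%), GGAATG (Tead, 12.6%) and TATAAA (12.4%) were not among its letters. No 2 matches overlapped. These matches describe letters and not bound sites.

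Of the 5 loci, 4 were less accessible in PB3-ERI-R than in PB3-Parental, and none was called different in PB3-PAC-R or PB3-VIN-R. The 4 that fell were Lox, Loxl1, Loxl2 and Loxl3, while Loxl4 did not pass the test. Of all 14903 tested loci, 30.3% were called lower, 28.0% higher and 58.3% in either direction in PB3-ERI-R, so a fall by itself was common. The median log2 difference was -1.57 over the 5 member loci and -0.00 over all loci. Calls are at an adjusted p under 0.05 from edgeR's quasi-likelihood test, adjusted over all loci or all regions. CPM values in this section are scaled by TMM, and the scaling for loci differs slightly from that for single regions.

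**Figure D1:**
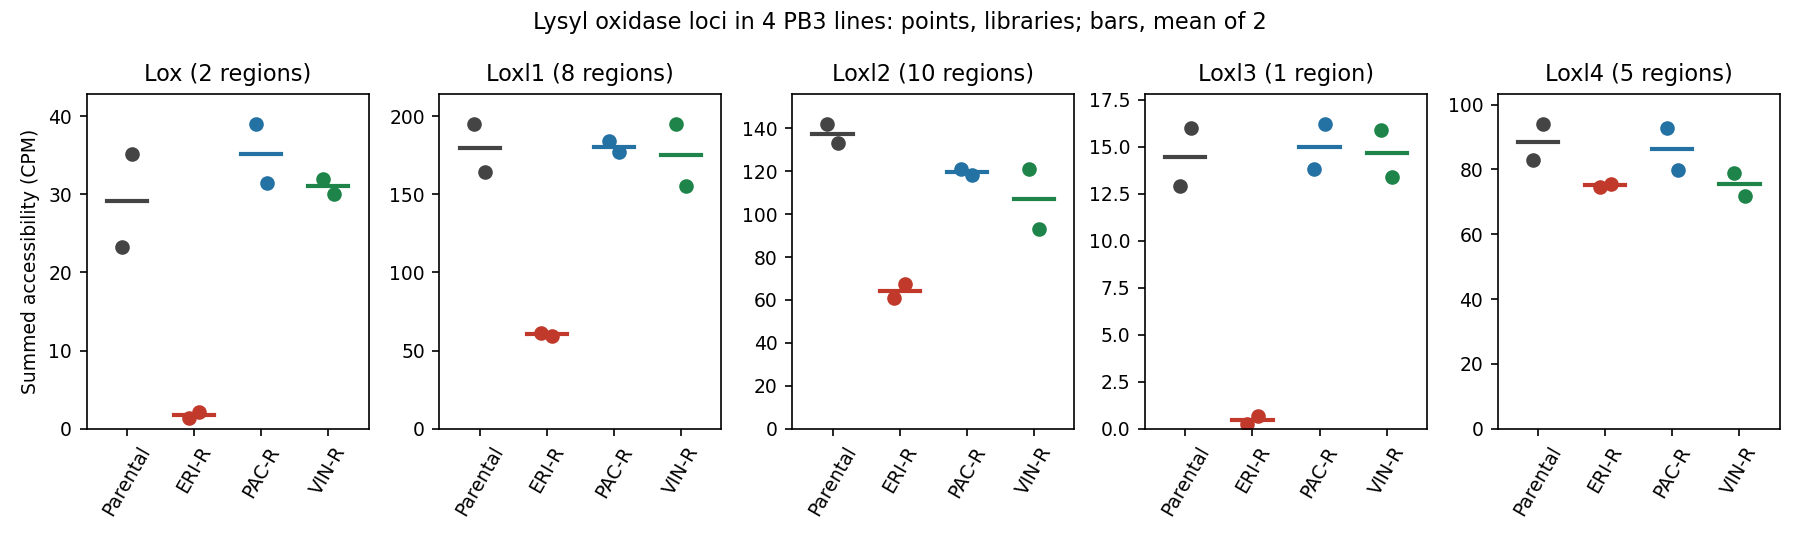
Accessibility of each lysyl oxidase locus in the 4 lines, in CPM on a linear axis from 0 with its own scale for each gene. Points are the 2 libraries of a line and bars their mean; the PB3-ERI-R points lie below every other library for Lox, Loxl1, Loxl2 and Loxl3, and between the libraries of the other lines for Loxl4.

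Lox (gene 16948, chromosome 18, 52516060 to 52529867) is the founding member and a main crosslinker of collagen and elastin. Its locus measured 23.3 and 35.1 CPM in PB3-Parental, 1.34 and 2.17 CPM in PB3-ERI-R, 39.0 and 31.4 CPM in PB3-PAC-R, and 31.9 and 30.1 CPM in PB3-VIN-R. Both PB3-ERI-R libraries lay far below every other library, and the other 3 lines overlapped. The means were 29.2 ± 8.38 CPM (SD, n = 2) in PB3-Parental and 1.75 ± 0.584 CPM in PB3-ERI-R, a log2 difference of -4.07 ± 0.30 (SE; 95% interval -4.74 to -3.40; adjusted p = 1.1e-06), or 16.8-fold lower. Over the 78 regions of the 5 Mb window around Lox (50 to 55 Mb) the median log2 difference was -1.36. With that window median taken out of the counts the Lox difference was -2.72 (adjusted p = 2.44e-05). Window medians came from the region fit, and taking them out moved the median of all loci from -0.00 to -0.13. The part of DNA copy number in the window was not tested.

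Both Lox regions lay outside the gene, beyond its end at the higher coordinate. No consensus region lay inside the Lox gene body or over either of its ends in any line. The region 28.8 kb away (52558704 to 52559239) measured 15.2 and 20.6 CPM in PB3-Parental, 0.65 and 0.886 CPM in PB3-ERI-R, 25.4 and 20.6 CPM in PB3-PAC-R, and 19.8 and 20.4 CPM in PB3-VIN-R. It held 7 and 8 counts in PB3-ERI-R against 252 and 310 in PB3-Parental (log2 -4.54 ± 0.33, adjusted p = 2.24e-08). The region 34.4 kb away (52564249 to 52564622) measured 4.39 and 9.52 CPM in PB3-Parental and 0.743 and 1.33 CPM in PB3-ERI-R. Both PB3-ERI-R libraries lay below both PB3-Parental libraries (log2 -2.76 ± 0.44, adjusted p = 5.01e-05). Without PB3-Parental replicate 2 its difference was -2.10. The next regions belong to other genes: one 50.1 kb below Lox, nearest to Srfbp1, had a log2 difference of 0.10 (adjusted p = 0.768), and those 107 and 109 kb above it, nearest to Zfp474, had differences of -2.49 and -3.92 (adjusted p = 3.89e-05 and 9.79e-08).

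Loxl1 (gene 16949, chromosome 9, 58287723 to 58313212) is the member known for binding fibulin 5 and for renewing elastic fibres. Its locus measured 195 and 164 CPM in PB3-Parental, 61.3 and 59.6 CPM in PB3-ERI-R, 184 and 177 CPM in PB3-PAC-R, and 195 and 155 CPM in PB3-VIN-R. The PB3-ERI-R libraries were the lowest and did not overlap with any other line. The means were 180 ± 21.7 and 60.5 ± 1.24 CPM (SD, n = 2), a log2 difference of -1.57 ± 0.13 (adjusted p = 2.95e-06), or 2.97-fold lower. The median of the surrounding 5 Mb window was 0.01. Nearby regions of other genes also changed. Those 24.5 and 34.1 kb below Loxl1, nearest to Stoml1, had differences of -3.48 and 0.40 (adjusted p = 1.21e-06 and 0.0235). One 41.2 kb above it, nearest to Tbc1d21, had a difference of -2.48 (adjusted p = 4.88e-05).

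The 8 Loxl1 regions split by position. All 4 regions inside the gene or over its higher end were nearly closed in PB3-ERI-R. The strongest fall of the family was at 58299311 to 58299904, inside the gene, with 35.2 and 37.5 CPM in PB3-Parental, 0.743 and 1.11 CPM in PB3-ERI-R, 35.2 and 37.5 CPM in PB3-PAC-R, and 36.0 and 31.8 CPM in PB3-VIN-R. Its log2 difference was -5.30 ± 0.26 (adjusted p = 1.56e-09), and 3 lines sat at nearly one level while the fourth was close to empty. The region over the higher gene end (58312953 to 58313399) measured 20.2 and 16.8 CPM in PB3-Parental and 0.557 and 0.664 CPM in PB3-ERI-R (log2 -4.91 ± 0.34, adjusted p = 1.32e-08). The regions at 58308219 and 58307640 fell by 4.70 and 3.31, and 1 region 1.85 kb beyond the higher end, at 58315067, fell by 2.78.

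The 3 Loxl1 regions beyond the lower end of the gene differed from these. The one at 58275122 to 58275888, 11.8 kb from the gene, measured 44.6 and 39.5 CPM in PB3-Parental, 45.2 and 39.5 CPM in PB3-ERI-R, 42.5 and 47.1 CPM in PB3-PAC-R, and 41.5 and 40.6 CPM in PB3-VIN-R. Its libraries overlapped across all 4 lines (log2 0.01 ± 0.15 in PB3-ERI-R, adjusted p = 0.948). It held 27.2% and 28.0% of the Loxl1 counts in PB3-Parental and 71.0% and 64.9% in PB3-ERI-R. Scaling by library totals alone, which moved the median of all regions to -0.29, gave -0.35 here (adjusted p = 0.0367). The region at 58280530, 6.93 kb from the gene, was higher in PB3-ERI-R (6.80 and 5.46 against 12.4 and 14.4 CPM; log2 1.12 ± 0.27, adjusted p = 0.00161), and the one at 58275912 was lower (log2 -1.43, adjusted p = 0.00081). Because of this split the locus value depends on the distance allowed: with regions inside the gene or within 10 kb the Loxl1 difference was -2.84, and over its higher gene end alone it was -5.28.

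Loxl2 (gene 94352, chromosome 14, 69608692 to 69695834) is known for crosslinking collagen IV of basement membranes and for its link to invasion in breast cancer. Its locus measured 142 and 133 CPM in PB3-Parental, 60.9 and 67.3 CPM in PB3-ERI-R, 121 and 118 CPM in PB3-PAC-R, and 121 and 93.0 CPM in PB3-VIN-R. PB3-ERI-R was lowest without overlap, and both other resistant lines lay below PB3-Parental without being called. The PB3-ERI-R difference was -1.10 ± 0.13 on the log2 scale (138 ± 6.17 to 64.1 ± 4.52 CPM, n = 2; adjusted p = 3.15e-05), or 2.15-fold lower. The 170 regions of its 5 Mb window (65 to 70 Mb) had a median of -0.90. With the window median taken out the Loxl2 difference was -0.20 (adjusted p = 0.199) and no longer called. All loci then had a median of -0.13. The part of copy number was not tested.

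Within Loxl2, regions moved in both directions. Of 10 regions, 9 of them inside this long gene, 7 fell, 2 rose and 1 was not called. Of all tested regions 37.6% were called lower and 35.4% higher, so movement in both directions was common. The regions nearest the lower gene end were almost lost: the one at 69610422 to 69610732 measured 8.19 and 8.12 CPM in PB3-Parental and 0.279 and 0.332 CPM in PB3-ERI-R, where it held 3 counts in each library, the count taken here as the floor. Its fitted log2 difference was -4.71 ± 0.39 (adjusted p = 6.91e-08). The neighbours at 69610899 and 69614005 fell by 4.48 and 3.88, and without PB3-ERI-R replicate 1 the first of these was at -5.13. The region with most counts, at 69656986, fell from 33.3 and 33.6 CPM to 7.80 and 10.5 CPM (log2 -1.88 ± 0.20, adjusted p = 8.89e-07), and those at 69661305 and 69604078 fell by 3.51 and 2.71. With the window median taken out, each of these 6 regions was still called lower, at -3.83 to -0.98.

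At the other end of Loxl2, the region at 69693348 to 69693635 went the opposite way. It measured 1.08 and 1.86 CPM in PB3-Parental, 18.8 and 17.9 CPM in PB3-ERI-R, 1.17 and 0.959 CPM in PB3-PAC-R, and 0.687 and 0.499 CPM in PB3-VIN-R. Its log2 difference of 3.64 ± 0.32 (adjusted p = 1.13e-07) was the largest rise among the 26 regions, about 12.5-fold, and it reached 4.54 with the window median taken out. This region held 0.907% and 1.63% of the Loxl2 counts in PB3-Parental and 29.7% and 26.1% in PB3-ERI-R. A second region, at 69639315, rose less and with less certainty (8.55 and 3.93 against 11.1 and 13.6 CPM; log2 0.97 ± 0.36, adjusted p = 0.0237). Its 2 PB3-Parental libraries differed widely, and the difference was 1.64 without PB3-Parental replicate 1, 0.53 without PB3-Parental replicate 2 (adjusted p = 0.202), and 0.82 without PB3-ERI-R replicate 2. It was no longer called in the last 2 of these, nor with library totals alone (0.62, adjusted p = 0.154). The small fall at 69642224 (-0.75, adjusted p = 0.0184) was -0.70 without PB3-Parental replicate 2 and -0.52 without PB3-ERI-R replicate 2, neither called, and 0.15 with the window median taken out. The region at 69648578 was not called (0.44, adjusted p = 0.121) but was called higher, at 1.34 (adjusted p = 0.00022), with the window median taken out.

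Loxl3 (gene 16950, chromosome 6, 83034205 to 83052566), a member needed for palate and cartilage development, had 1 region of its own, at 83038699 to 83039016 inside the gene. It measured 10.8 and 13.8 CPM in PB3-Parental, 0.279 and 0.664 CPM in PB3-ERI-R, 11.6 and 14.1 CPM in PB3-PAC-R, and 12.9 and 12.2 CPM in PB3-VIN-R. The PB3-ERI-R libraries held 3 and 6 counts against 180 and 207 in PB3-Parental, while the other 3 lines overlapped. As a locus its difference was -5.0 ± 0.37 (adjusted p = 1.13e-06), fitted as 32.0-fold lower, and -5.70 without PB3-ERI-R replicate 2. As a region, with the same counts but the region scaling, its difference was -4.73 (adjusted p = 7.36e-08). The fall rests on few counts in PB3-ERI-R, so its size is less certain than its direction. Regions of other genes close by changed too. Those 6.09 and 9.92 kb below Loxl3, nearest to M1ap, had differences of -0.80 and -4.07. Those 0.552, 1.77 and 5.24 kb above it, nearest to Htra2, Aup1 and Dqx1, had differences of -1.95, 0.25 (not called) and 3.85.

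A further region, at 83033377 to 83034226, spans the lower end of Loxl3 and the end of the neighbouring gene Dok1, and was counted for Dok1, with which it overlaps more. It measured 43.5 and 35.9 CPM in PB3-Parental, 25.8 and 20.7 CPM in PB3-ERI-R, 49.2 and 46.8 CPM in PB3-PAC-R, and 44.3 and 38.0 CPM in PB3-VIN-R. It was lower in PB3-ERI-R (log2 -0.77 ± 0.17, adjusted p = 0.00105), but kept more of its level than the region inside Loxl3. Counted for Loxl3, an alternative chosen after the data were seen, it moved the Loxl3 locus difference to -1.41 (adjusted p = 1.64e-05).

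Loxl4, which like Loxl2 can crosslink collagen, was the 1 locus not called in PB3-ERI-R. It measured 82.8 and 94.0 CPM in PB3-Parental, 74.6 and 75.5 CPM in PB3-ERI-R, 92.8 and 79.7 CPM in PB3-PAC-R, and 78.9 and 71.9 CPM in PB3-VIN-R. The PB3-ERI-R libraries lay below both PB3-Parental libraries and inside the range of PB3-VIN-R. The log2 difference was -0.24 ± 0.11 (95% interval -0.49 to 0.02; adjusted p = 0.101), which does not show that the levels were equal. Scaled by library totals alone it was -0.32 and called (adjusted p = 0.0328). With the window median of -0.42 taken out it was 0.18 (adjusted p = 0.197), where all loci had a median of -0.13. The Loxl4 locus was not fitted with the scaling used for single regions. That scaling made the Loxl3 difference less negative, so the small Loxl4 difference may depend on this choice.

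The near level total of Loxl4 was made of regions that moved apart. The region over the gene start, whose promoter letters are printed above (42612322 to 42613164), measured 17.5 and 19.0 CPM in PB3-Parental, 21.6 and 16.6 CPM in PB3-ERI-R, 21.2 and 16.6 CPM in PB3-PAC-R, and 17.1 and 19.5 CPM in PB3-VIN-R. All 4 lines overlapped there (log2 0.07 ± 0.22 in PB3-ERI-R, adjusted p = 0.771). The region 1.00 kb upstream of the start (42613810 to 42614218) measured 3.97 and 6.32 CPM in PB3-Parental, 34.9 and 37.9 CPM in PB3-ERI-R, 6.05 and 2.88 CPM in PB3-PAC-R, and 4.62 and 4.33 CPM in PB3-VIN-R. PB3-ERI-R was far above the 3 other lines, which overlapped (log2 2.82 ± 0.32, adjusted p = 1.78e-06, about 7.08-fold). Its share of the Loxl4 counts was 5.71% and 7.83% in PB3-Parental and 45.1% and 49.1% in PB3-ERI-R. Farther upstream, the region at 42631391 fell from 15.8 and 17.9 CPM to 1.30 and 2.88 CPM (log2 -3.04 ± 0.31, adjusted p = 6.67e-07; -3.69 without PB3-ERI-R replicate 2). The region at 42659878, 47.1 kb away and the farthest of the family, fell by 0.99 (adjusted p = 0.000284), and the one at 42655139 was not called (-0.15, adjusted p = 0.667). With the regions within 10 kb alone, the Loxl4 locus was higher in PB3-ERI-R, by 0.98 on the log2 scale (adjusted p = 0.000635).

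**Figure D2:**
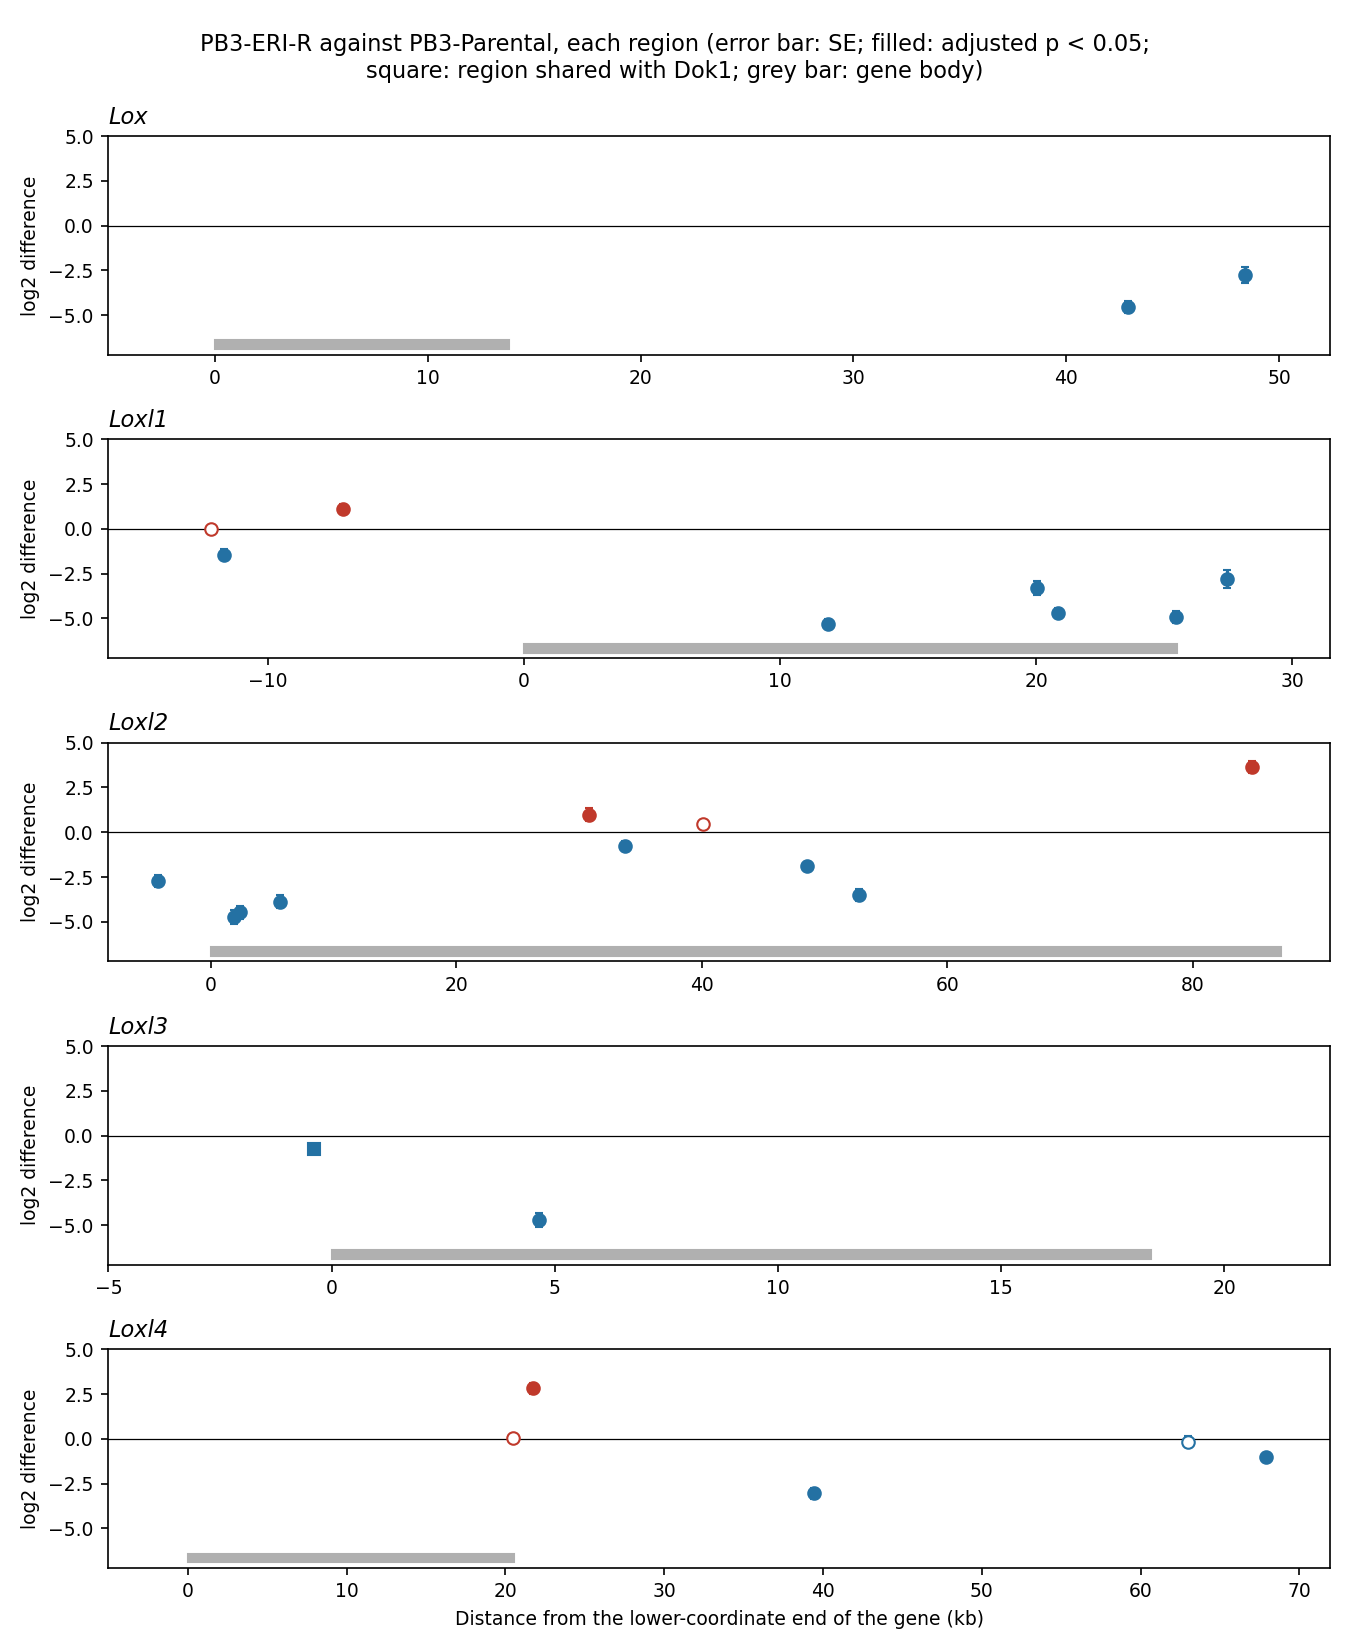
Log2 difference of each family region between PB3-ERI-R and PB3-Parental against its distance from the lower end of the gene body, in kb, with standard errors. The shaded span is the gene body; the Loxl1 regions within and beyond the higher end fall together, while the 4 called rises sit below Loxl1, in the middle and near the higher end of Loxl2, and just upstream of Loxl4.

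Over the family, 18 of the 26 regions were lower in PB3-ERI-R, 4 were higher and 4 were not called. Of all tested regions 37.6% were lower and 35.4% higher. The median log2 difference was -2.73 over the 26 regions and 0.07 over all regions. Inside the gene bodies 11 of 15 regions were lower and 2 higher, and outside them 7 of 11 were lower and 2 higher. The regions that rose were 1 region of Loxl1, 2 of Loxl2 and 1 of Loxl4. No test was made of the family as a set.

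**Figure D3:**
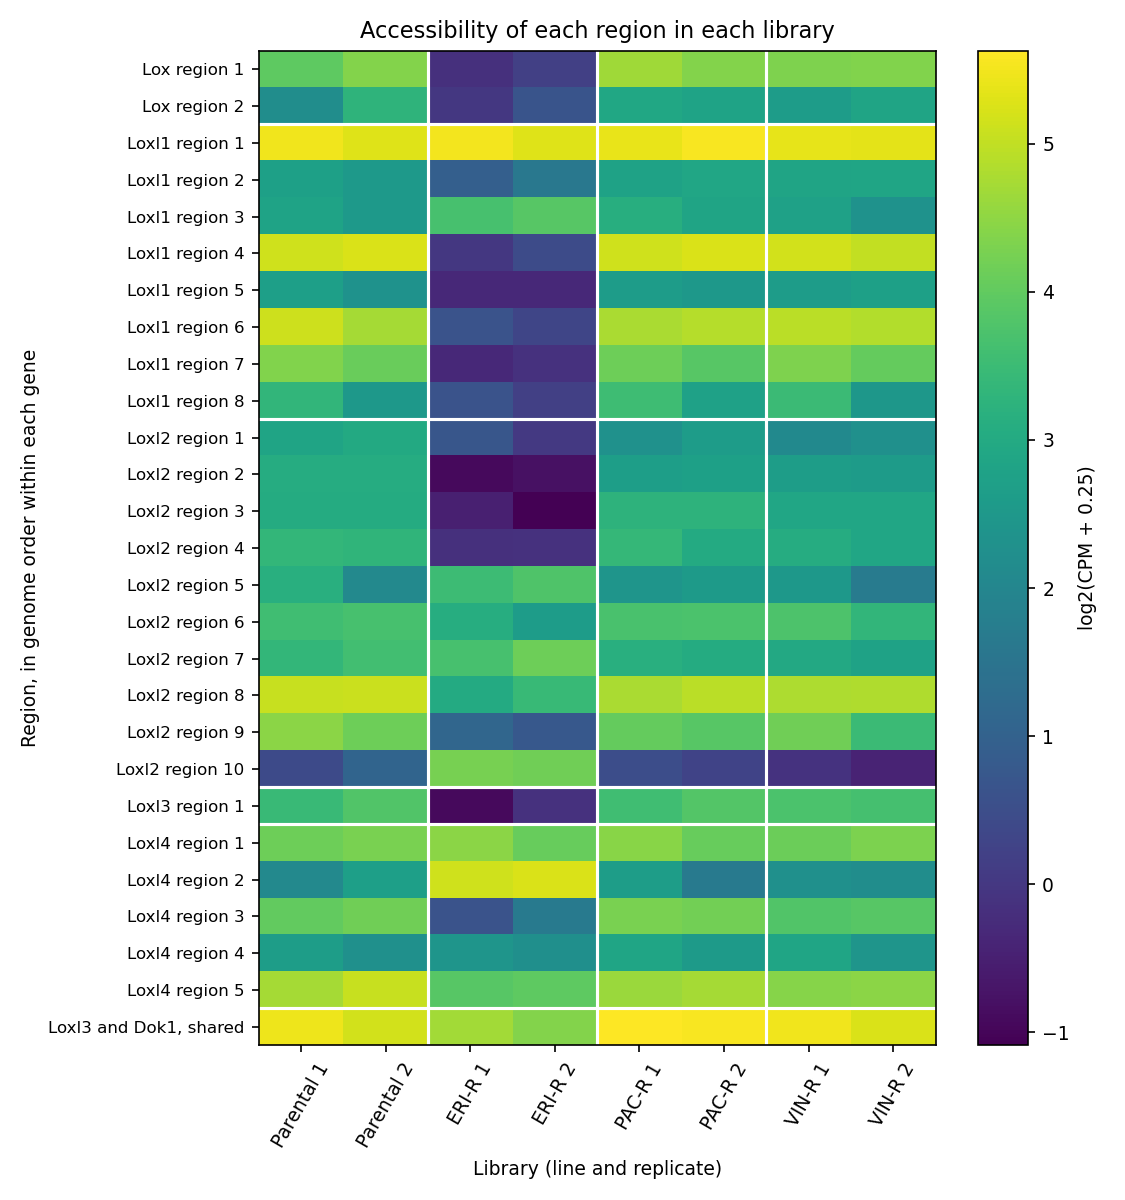
Accessibility of the 26 family regions and of the region shared by Loxl3 and Dok1 in all 8 libraries, as log2 of CPM plus 0.25 (colour). Rows are regions in order along each gene and columns are libraries; the 2 PB3-ERI-R columns differ from the other 6 in most rows, and the PB3-PAC-R and PB3-VIN-R columns stay near PB3-Parental.

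The authors' peak lists, 1 per line and with no replicates to compare, gave the same regions as present or absent. Of the 26 regions, 19 overlapped a peak of PB3-Parental, 6 of PB3-ERI-R, 18 of PB3-PAC-R and 22 of PB3-VIN-R. The shares of all consensus regions with a peak of each line are not given here, so these counts have no background beside them. Libraries held most counts in PB3-VIN-R (24052237 and 23206697) and fewest in PB3-ERI-R (13419873 and 10521964). The part of depth in the peak counts was not tested. A peak in PB3-VIN-R alone was found at 2 regions (7.69%, against 9.16% of all consensus regions). These regions, Loxl1 58307640 and Loxl4 42655139, had means of 6.16 and 6.05 CPM there. In PB3-Parental their means were 5.56 and 5.34 CPM. A peak in every line but PB3-ERI-R was found at 13 of them (50%, against 26.9% of all consensus regions), in PB3-ERI-R alone at 3 (11.5% against 16.9%) and in all 4 lines at 3 (11.5% against 31.4%). The 3 found in PB3-ERI-R alone were the Loxl4 region 1.00 kb upstream of the start, with the authors' fold enrichment at 22.3, and the Loxl2 regions at 69639315 and 69693348, with fold enrichments of 16.7 and 13.7. The 3 with a peak in all lines were the Loxl1 regions at 58275122 and 58280530 and the Loxl2 region at 69648578. The Loxl4 region over the gene start had no PB3-ERI-R peak, although its counts there were 233 and 150 and its level was not called different.

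In PB3-PAC-R none of the 26 regions was called, against 0.0853% of all regions, and DESeq2 also called none. No unadjusted edgeR p among the 26 was under 0.05, against 3316 of all 57415 tested regions. Region differences ran from -0.45 to 0.36 on the log2 scale. None of the 5 loci was called either, by edgeR or DESeq2, against 0.114% of all loci. The 95% intervals allowed a difference of -0.21 to 0.75 for Lox, -0.27 to 0.29 for Loxl1, -0.49 to 0.07 for Loxl2, -0.46 to 0.57 for Loxl3 and -0.29 to 0.22 for Loxl4.

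In PB3-VIN-R none of the 26 regions was called by edgeR or by DESeq2, with 0.678% of all regions called by edgeR. An unadjusted edgeR p under 0.05 was found at 5667 of all 57415 tested regions and at 4 of the 26. Those 4 were lower: the Loxl2 regions at 69693348 (-1.29, adjusted p = 0.17), 69604078 (-0.74, adjusted p = 0.3) and 69648578 (-0.62, adjusted p = 0.365), and the Loxl4 region at 42659878 (-0.47, adjusted p = 0.342). No member locus was called by edgeR or DESeq2, against 0.678% of all loci by edgeR. An unadjusted edgeR p under 0.05 was found at 1070 of all 14903 loci and at 1 of the 5. That locus was Loxl2, at -0.37 on the log2 scale (95% interval -0.64 to -0.09), with an adjusted p = 0.395 by edgeR. The differences of the other loci were 0.09 for Lox, -0.03 for Loxl1, 0.02 for Loxl3 and -0.23 for Loxl4 (95% interval -0.48 to 0.02).

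The resistant lines were also compared with each other. These comparisons share libraries with those against PB3-Parental. Against PB3-PAC-R, PB3-ERI-R was lower at 4 of 5 loci, where 30.9% of all loci were lower and 60.3% called in either direction. The differences were -4.35 for Lox, -1.58 for Loxl1, -0.90 for Loxl2, -5.06 for Loxl3 and -0.20 for Loxl4, the last not called (adjusted p = 0.154). With the window medians taken out, Loxl2 differed by -0.00 from PB3-PAC-R (adjusted p = 0.998) and by 0.12 from PB3-VIN-R (adjusted p = 0.457), neither called. Lox then differed by -2.92 and -2.84 from these lines, both called. With the region shared with Dok1 counted for Loxl3, Loxl3 differed by -1.63 and -1.45, both called. Against PB3-VIN-R the same 4 loci were lower, where 30.4% of all loci were lower and 58.6% called. Loxl4 differed from PB3-VIN-R by -0.01 (95% interval -0.26 to 0.25; adjusted p = 0.964). It was called higher in PB3-ERI-R with the window medians taken out against PB3-VIN-R (0.32, adjusted p = 0.0326), and with regions within 10 kb against both lines (0.96 and 1.02, adjusted p = 0.000701 and 0.000418), but lower than PB3-PAC-R with library totals alone (-0.30, adjusted p = 0.0411). PB3-PAC-R and PB3-VIN-R differed at none of the 5 loci by edgeR or DESeq2, with 0.0336% of all loci called, and the smallest unadjusted p among the 5 was 0.113.

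To set the genes beside each other, locus levels were divided by the length of their regions. In PB3-Parental, Loxl1 was highest at 51.6 ± 6.24 CPM per kb (SD, n = 2) and Loxl3 followed at 45.5 ± 7.02, which is within their spread. Loxl2 at 32.5 ± 1.46, Loxl4 at 32.4 ± 2.92 and Lox at 32.1 ± 9.20 CPM per kb did not differ beyond theirs. In PB3-ERI-R the order was another one: Loxl4 led at 27.5 ± 0.244 CPM per kb, followed by Loxl1 at 17.4 ± 0.356 and Loxl2 at 15.1 ± 1.07. Lox at 1.93 ± 0.642 and Loxl3 at 1.44 ± 0.849 CPM per kb came last and overlapped. The Loxl3 value rests on 1 region of 318 bp. It leaves out the region of 850 bp counted for Dok1, which measured 25.8 and 20.7 CPM in PB3-ERI-R. The place of Loxl3 in the PB3-ERI-R order therefore depends on that assignment. In PB3-PAC-R and PB3-VIN-R the leading gene was Loxl1 again, at 52.0 ± 1.43 and 50.4 ± 8.14 CPM per kb, with Loxl3 next at 47.3 ± 5.33 and 46.2 ± 5.60.

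The genes that work with the family were then described from lists of loci, each by its count and its median. Over all loci the median was -0.00, with 30.3% called lower, 28.0% higher and 58.3% in either direction. None of their 71 loci was called in PB3-PAC-R or PB3-VIN-R by edgeR or DESeq2, so the values that follow are for PB3-ERI-R. An unadjusted edgeR p under 0.05 was found at 6 and 5 of the 71, and at 849 and 1070 of all 14903 loci. Among genes for processing and activating lysyl oxidases, 6 of 8 fell and 2 rose (58.3% of all loci called), with a median log2 difference of -1.07. Adamts14, a procollagen protease, fell from 184 ± 31.7 to 38.4 ± 2.22 CPM (n = 2; log2 -2.26, adjusted p = 7.17e-07). Pcolce2, which enhances procollagen cleavage, fell by 1.17 (adjusted p = 5.02e-05), while Postn, whose protein periostin brings Bmp1 to its matrix substrates, rose from 24.6 ± 2.12 to 67.8 ± 4.68 CPM (log2 1.46, adjusted p = 6.77e-06).

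The substrates of the family moved in both directions. Of 10 fibrillar collagen loci, 6 fell and 3 rose (median -0.80), against 30.3% of all loci called lower and 28.0% higher. Col24a1 fell by 1.96 (141 and 142 to 38.6 and 34.0 CPM, adjusted p = 5.81e-07). Col2a1, the cartilage collagen, rose by 4.57 (3.29 and 2.71 to 91.1 and 52.2 CPM, adjusted p = 1.38e-06) and Col11a1 rose by 2.91 (8.02 and 7.98 to 60.6 and 60.1 CPM, adjusted p = 1.17e-06). The 5 Mb window of Col11a1 had a median of 2.49. Of 6 collagen IV loci, 3 fell and 3 rose (median -0.57), against the same shares: Col4a1, Col4a2 and Col4a3 were lower, at -1.9, -2.26 and -2.07 (adjusted p = 5.83e-07, 6.36e-07 and 7.63e-07).

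Of 14 loci of elastic fibre genes, 6 fell and 5 rose (median -0.37), against 30.3% of all loci called lower and 28.0% higher. Fbln5, which encodes fibulin 5, the partner of Loxl1 in elastic fibres, rose from 9.74 and 14.4 CPM to 234 and 165 CPM (log2 4.05 ± 0.22, adjusted p = 1.73e-07), whereas the Loxl1 locus itself fell. Fbln2 fell by 2.12 (301 to 69.3 CPM, adjusted p = 4.49e-07). Efemp2, whose protein fibulin 4 tethers Lox to tropoelastin, fell from 55.4 and 48.4 CPM to 12.3 and 10.9 CPM (log2 -2.16, adjusted p = 7.44e-07).

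Among enzymes that modify collagen lysine or proline or otherwise crosslink it, and the collagen chaperone, 4 of 10 loci fell and 3 rose (median 0.12), against 30.3% of all loci called lower and 28.0% higher. P4ha3, a prolyl hydroxylase subunit, fell by 0.95 (adjusted p = 3.88e-05) and Plod1, a lysyl hydroxylase, by 1.27 (adjusted p = 0.000113). Serpinh1, the collagen chaperone, rose by 1.17 (adjusted p = 0.000315). Among genes of copper supply, 3 of 7 rose and 1 fell (median 0.36), so 57.1% were called, near the 58.3% of all loci. Steap4, a metalloreductase that reduces copper and iron, rose from 3.72 and 4.88 CPM to 321 and 243 CPM (log2 6.04 ± 0.28, adjusted p = 8.41e-08) in a window whose median was 1.97. Ccs, a copper chaperone, rose by 3.70 (2.27 to 29.7 CPM, adjusted p = 2.75e-06), and Atp7a, the pump that loads copper into secreted enzymes, rose by 0.78 (adjusted p = 0.00025), less than its window median of 1.12.

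Of 16 loci of factors known to regulate lysyl oxidase genes, 5 fell and 3 rose (median -0.17), so 50% were called, against 58.3% of all loci. Tgfb2, a growth factor that induces them, rose by 1.43 (148 to 398 CPM, adjusted p = 1.7e-06). Zeb1 and Zeb2, repressors of epithelial genes that are also on the mesenchymal list, fell by 1.05 and 0.79 (adjusted p = 2.96e-05 and 2.44e-05).

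**Figure D4:**
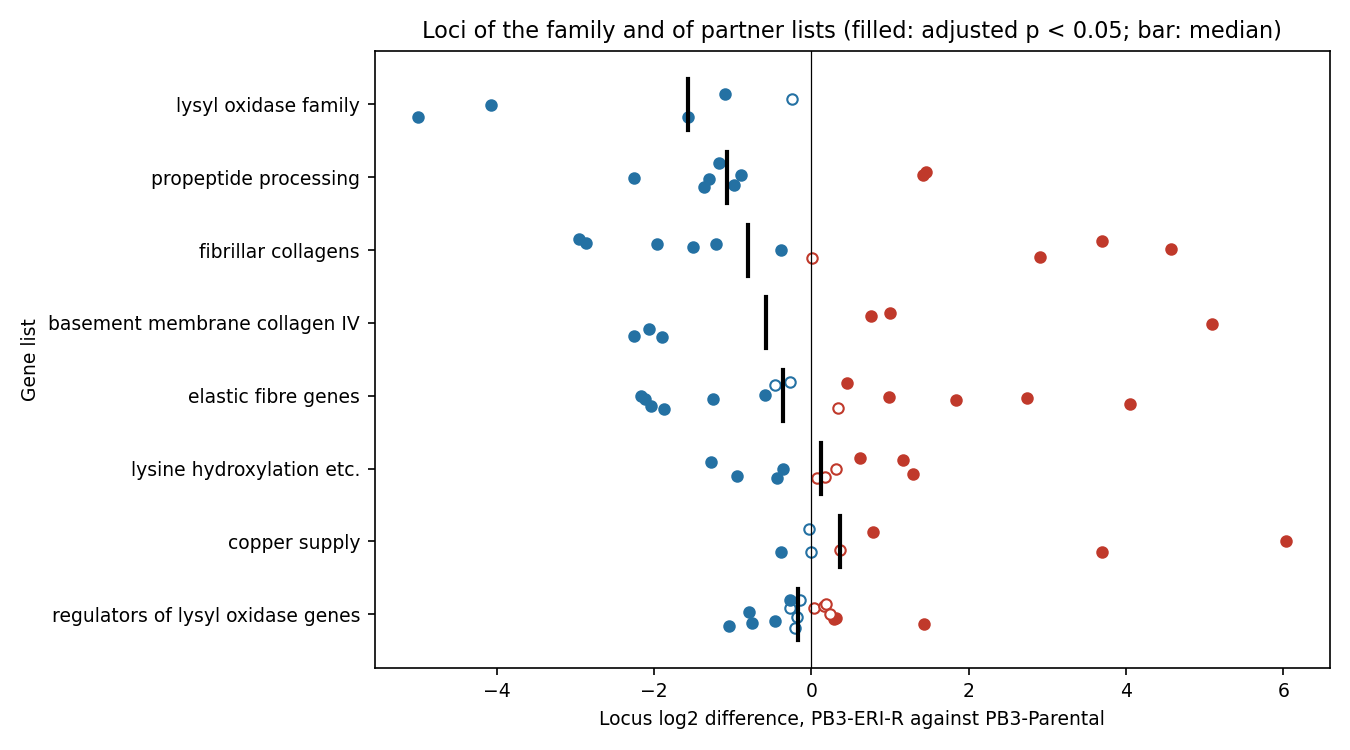
Log2 difference between PB3-ERI-R and PB3-Parental of every tested locus of the family and of each partner list, 1 point per locus, with the list median as a bar. The family points all lie at or below -0.24, and each partner list has points on both sides of 0. The family point at -0.24 is Loxl4, which was not called and was 0.98 with the regions within 10 kb alone.

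The loci whose pattern over the 8 libraries was most like each member were found by the root mean square difference of centred log2 CPM, among 14658 loci with enough counts. They were Fgf23, Ofcc1 and Lrrc7 for Lox (0.17 to 0.18), Gm28802, Zfand3 and Eef1g for Loxl1 (0.03 to 0.05), and Acot12, Trim29 and Vat1 for Loxl2 (0.08 to 0.09). Loxl3 was most like Gm32936, Gm3650 and Marchf1 (0.10 to 0.14), and Loxl4 was most like Fndc3a, Fech and Mta1 (0.06 each). Pearson's r was 0.98 to 1.00 for the first 4 members and 0.88 to 0.93 for Loxl4, over 8 libraries that share their lines and, for the first 4, a step down in PB3-ERI-R. No member was among the 3 most like another.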

How the data were processed

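ATAC-seq libraries of 4 PB3 lines, 2 per line, were grouped by the line in the labels. Per the submitters' processing notes, the authors used Bowtie2 2.2.6, MACS2 2.1.1, featureCounts, deepTools, Picard, cutadapt 1.9.1 and bcl2fastq 2.20.0.422, with builds mm10 and GRCm38. How these were set is not given in the sources used here. Raw counts, whole numbers for each library and consensus region, are what the deposited table gives. Each line has 1 deposited peak list, with a fold enrichment, a ratio over the local background, and a -log10 q value for every summit.

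Of 57417 regions, 48280 were assigned to the nearest protein-coding gene within 50 kb (RefSeq, GRCm38.p6), and a region overlapping more than 1 gene to the larger overlap. Regions (57415 tested) and summed loci (14903 tested) were fitted with edgeR 4.0.16 in R 4.3.3: filterByExpr, TMM scaling, then the quasi-likelihood test, with a term for each line over the 8 libraries together (4 residual degrees of freedom). P-values were adjusted by Benjamini-Hochberg over all regions or all loci and called under 0.05. Totals were 10521964 to 24052237 counts, and 3 counts, the floor, are 0.114 to 0.332 CPM in 1 library; these cover counting error only. Alternatives were other scalings, no filter, DESeq2 1.42.0, a replicate block, 2-line fits, leaving out each library, narrower distances, and offsets by the median of each 5 Mb window. These medians came from the region fit and were also used for loci, whose scaling differs. On simulated data, 100 changes of each size were made, with all other features unchanged and 1 dispersion for all. The region fit of PB3-ERI-R against PB3-Parental recovered 38% of log2 changes of 1 and 99% of those of 2. The locus fit recovered 97% and 100%. In the data 73.0% of regions were called, which makes the cutoff on unadjusted p looser than in the simulation. These shares therefore do not measure recovery in the data.

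The members and lists were chosen with earlier results of these data known. Genes named by rule are the members, the 3 loci of each partner list whose adjusted p in PB3-ERI-R was smallest, and the 3 loci most like each member. Endothelial marker loci and some genes next to the members are also named, outside this rule.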

Additional observations from a re-analysis of the deposited data

Results flagged for a closer look

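The effect on a locus in PB3-ERI-R differed from that in another resistant line, by a direct edgeR test of the difference, for 4 of the 5 members. Since both effects are taken against PB3-Parental, these are the comparisons between resistant lines given above. Of all loci, 60.3% were called against PB3-PAC-R and 58.6% against PB3-VIN-R. Against PB3-PAC-R the difference of the log2 effects was -4.35 for Lox (adjusted p = 6.99e-07), -1.58 for Loxl1 (adjusted p = 2.75e-06), -0.90 for Loxl2 (adjusted p = 0.000143) and -5.06 for Loxl3 (adjusted p = 1.04e-06). Against PB3-VIN-R it was -4.16 for Lox (adjusted p = 8.42e-07), -1.54 for Loxl1 (adjusted p = 3.15e-06), -0.74 for Loxl2 (adjusted p = 0.000542) and -5.02 for Loxl3 (adjusted p = 9.73e-07). With the window medians taken out, the Loxl2 differences were -0.00 (adjusted p = 0.998) and 0.12 (adjusted p = 0.457) and no longer called. Those of Lox were then -2.92 and -2.84, still called. With the region shared with Dok1 counted for Loxl3, the Loxl3 differences were -1.63 and -1.45, still called. In all 8 cases both PB3-ERI-R libraries were below both libraries of the other line.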

How the results depend on the processing

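Over the alternatives run, Lox, Loxl1 and Loxl3 stayed lower and called in PB3-ERI-R: Lox at -4.42 to -2.72, Loxl1 at -5.28 to -1.44 and Loxl3 at -5.70 to -1.41 on the log2 scale. Loxl2 was at -1.19 to -0.20, and lost its call with window offsets (-0.20, adjusted p = 0.199). Loxl4 was called lower with library totals only (-0.32), and turned to 0.18 with window offsets and to 0.98 within 10 kb. With window offsets 1 member locus was called higher in PB3-ERI-R than in PB3-VIN-R, against 0 before. Deviations of same-numbered libraries correlated positively between all lines, from 0.0729 (PB3-Parental and PB3-ERI-R) to 0.446 (PB3-PAC-R and PB3-VIN-R), a hint of shared sets; the labels do not say what a number marks, and 0.1 was required of every pair, so the block stayed an alternative. With a replicate block the differences were -4.07, -1.57, -1.10, -5.0 and -0.24 for Lox to Loxl4, and no member call changed, while calls over all regions rose from 41920 to 45214 in PB3-ERI-R, from 49 to 636 in PB3-PAC-R and from 389 to 2717 in PB3-VIN-R. Signs that turned were all of differences not called, except at Loxl2 69642224 (0.15) and Loxl2 against PB3-VIN-R (0.12), both with window offsets. Between PB3-ERI-R and PB3-PAC-R, Loxl4 was 0.17 with window offsets and 0.96 within 10 kb; against PB3-VIN-R it was 0.01 with RLE scaling and with DESeq2, 0.32 with window offsets, 1.02 within 10 kb, and -0.06 to 0.06 over left-out libraries. In PB3-PAC-R, Loxl1 ran from -0.11 to 0.14 over the left-out libraries and was -0.02, -0.01 and -0.20 with window offsets, within 10 kb and within 1 kb of a gene end; Loxl3 ran from -0.09 to 0.22 and was -0.11 with window offsets; Loxl4 ran from -0.15 to 0.07 and was 0.01, 0.02 and 0.07 with the same 3 settings as Loxl1. In PB3-VIN-R the left-out libraries gave -0.18 to 0.41 for Lox, -0.21 to 0.12 for Loxl1 and -0.13 to 0.19 for Loxl3. In PB3-ERI-R, Loxl1 58275122 was -0.01 with RLE scaling and with DESeq2, -0.35 with library totals, -0.03 with 2 lines, and -0.09 to 0.10 over left-out libraries; Loxl4 42612322 was -0.29 with library totals and -0.13 to 0.25 over left-out libraries; Loxl4 42655139 was 0.27 with window offsets and -0.32 to 0.04 over left-out libraries. Library totals only split the called regions in PB3-ERI-R into 14862 higher and 25149 lower, against 20338 and 21582. A line left with 1 library was assumed to vary like the others. Lox has no value within 10 kb, and Lox, Loxl2 and Loxl3 none within 1 kb of a gene end, since no region assigned to them lies there (those at the Loxl3 ends were assigned to Dok1 and Htra2). Depth limits the size of the falls in regions with under 10 counts in PB3-ERI-R.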
